A study of Mus musculus with 13 samples.

Results

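Whole-brain RNA of mice with 1 P195A allele of Adar beside a wild-type allele (P195A/+, 3 libraries) was compared with that of wild-type mice (3 libraries), which is 6 of the 13 libraries of the study. The groups were taken from the genotype labels, and expression and A-to-G editing were read from the same libraries. All animals were of the C57BL/6 strain and each library came from 1 animal. Both groups held 2 females and 1 male. Wild-type animals were 48, 48 and 74 days old, and all P195A/+ animals were 43 days old, so age and genotype cannot be told apart. Weights at weaning spanned 9.0 to 10.5 g in the wild-type animals and 9.0 to 10.7 g in the P195A/+ animals. Weaning was at 19, 19 and 24 days in wild type and at 21 days in all P195A/+ animals. The weights of the groups were thus taken at unlike ages. The other 7 libraries had P195A on both alleles or P195A opposite a null allele. For expression they entered the filter on low counts, the scaling of libraries and the estimate of spread, but not the contrast of genotypes. They did not enter the fit of editing. P195A/+ mice keep a wild-type Adar allele in every cell, and the counts do not separate the alleles.

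Adar encodes ADAR1, an enzyme that deaminates adenosines of double-stranded RNA to inosine, which sequencing reads as G. The P195A substitution lies in the Z-nucleic acid binding domain, which is found only in the long, interferon-inducible form of the enzyme. Editing by ADAR1 keeps double-stranded RNA of the cell's own genes from setting off antiviral sensors, while much of the recoding of neuronal receptor transcripts is the work of the related enzyme ADAR2, encoded by Adarb1.

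The 6 libraries held 17891377 to 22399005 estimated gene counts. Of 51257 listed sites that are A in the reference transcript, 14019 were tested, each with at least 10 A plus G reads in every library and a pooled level of 1 to 99%. Median depth was 21, 21 and 24 reads per site in wild type and 21, 30 and 21 in P195A/+. P195A/+ replicate 2 stood apart, with 337126 reads at intronic sites against 216087 to 245616 in the other libraries. Reads with C or T at these sites, which editing cannot give, made up 0.0172 to 0.0186% in wild type and 0.0108 to 0.0140% in P195A/+. Nothing in the labels says whether litters were shared, so p-values measure the spread between these animals.

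Editing was higher on average in the P195A/+ brains. The mean level over the 14019 sites was 15.6, 15.04 and 16.3% in the wild-type libraries and 17.6, 17.1 and 17.8% in the P195A/+ libraries. All 3 P195A/+ libraries lay above all 3 wild-type libraries. The group means were 15.7% ± 0.657 (SD, n = 3) and 17.5% ± 0.369 (n = 3), a difference of 1.83 percentage points with an exact two-sided permutation p of 0.1, the smallest that 3 against 3 can give. Weighted by depth, the means were 15.03 and 16.6%. The difference had the same sign on each of the 20 chromosomes with tested sites, and on 17 of them the groups did not overlap. Sites of 1 library share their animal, so these are descriptions and not independent replicates.

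The same order was seen in each class of transcript region with at least 20 sites. Introns held 9929 sites, and their mean level was 15.3, 14.9 and 16.3% in wild type and 17.8, 17.02 and 17.8% in P195A/+. The 2106 sites in 3′ UTRs, where editing falls mostly in paired repeats, had 14.1, 13.6 and 14.4% against 15.2, 15.1 and 15.5%. Coding exons held 149 sites, with 20.1, 19.9 and 20.4% against 21.2, 22.0 and 21.1%. The 954 sites in non-coding exons had group means of 16.2% ± 1.15 and 17.6% ± 0.0945, and the 864 sites outside genes 20.1% ± 0.560 and 21.5% ± 0.879 (SD, n = 3 each). No region overlapped between the groups, and each difference had an exact permutation p of 0.1 (adjusted over the 5 regions, 0.1), again the smallest possible. Differences ran from 1.24 percentage points in 3′ UTRs to 2.04 in introns. Whether regions differed from each other in their response was not tested. The 17 sites in 5′ UTRs overlapped between groups (13.8% ± 2.57 and 14.9% ± 1.68, SD, n = 3 each).

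**Figure D1:**
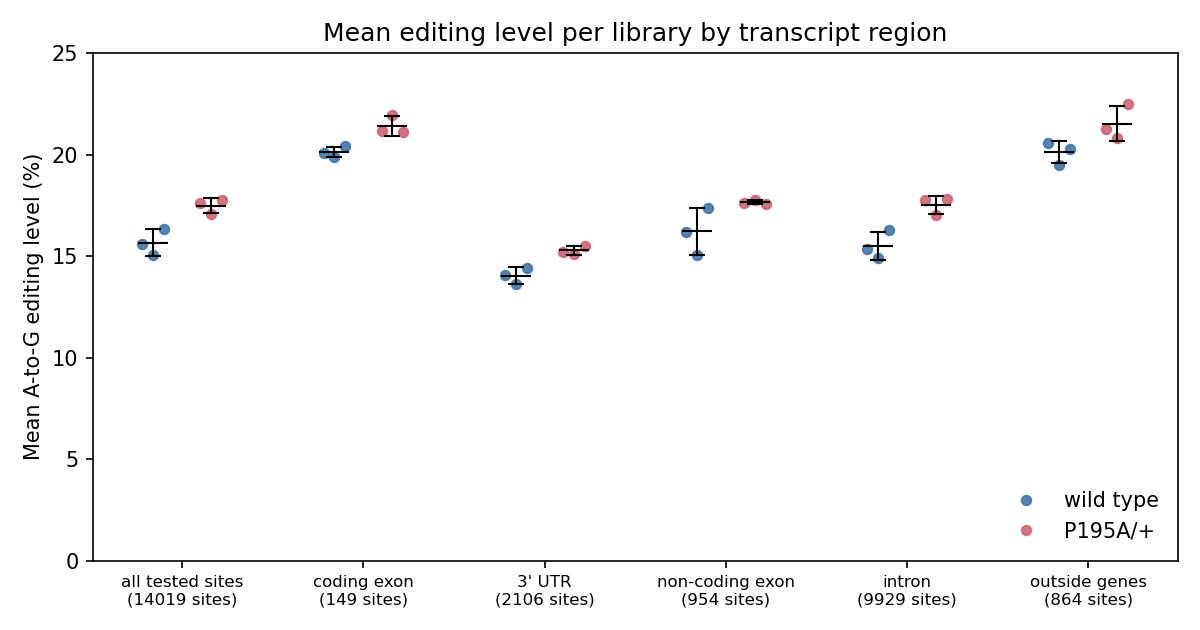
Mean A-to-G editing level (%) of each library by transcript region, with the number of sites under each name; points are libraries, bars the group mean ± SD (n = 3). The P195A/+ points lie above the wild-type points in every region shown.

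The difference between the groups was largest at sites of intermediate level. For sites with a pooled level of 1 to 5% the group means were 2.70% ± 0.196 in wild type and 3.20% ± 0.171 in P195A/+ (SD, n = 3 each). At 20 to 40% they were 26.3% ± 1.19 and 29.4% ± 0.702, and at 40 to 60%, where the difference was 4.08 percentage points, 46.1% ± 1.57 and 50.2% ± 0.670. At 80 to 99% they were 86.3% ± 0.573 and 88.1% ± 0.765. The ratio of the group means went from 1.18 in the lowest class to 1.02 in the highest. Groups did not overlap in any of the 7 classes.

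Sites without another tested site within 50 bases, 2714 in all, had 12.6% ± 0.675 in wild type and 14.996% ± 0.274 in P195A/+. Sites with 4 or more others within that distance, 5480 in all, had 17.4% ± 0.546 and 18.7% ± 0.377 (SD, n = 3 each). Clustered sites were thus edited more in both genotypes, and the difference was 2.41 percentage points at the isolated sites and 1.36 at the clustered ones. Sites with 1 to 3 others had a difference of 1.99. Within introns the differences were 2.58, 2.09 and 1.65 from isolated to clustered sites. Within 3′ UTRs they were 1.56, 1.77 and 0.869, so the middle class was highest there. A test between the classes was not made.

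ADAR enzymes are known to avoid adenosines that follow a G. Of 3225 exonic sites whose neighbours could be read, 35.2% had a T before the edited A and 7.22% a G. Sites after T had mean levels of 18.4% ± 0.709 in wild type and 20.0% ± 0.0652 in P195A/+. Sites after G had 7.53% ± 0.446 and 7.81% ± 0.355, and there the groups overlapped (SD, n = 3 each). The rank of the preceding bases, T, A, C and G, was the same in both genotypes.

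Coding sites of 24 genes known for recoding gave 63 tested sites, of which 49 change the amino acid. The stretches below show the sites that the results turn on, read from the GENCODE M21 transcripts (GRCm38, the build called mm10 in the deposited tables). They run 5′ to 3′ on the transcript strand, with the edited adenosines shown in capitals. Of the paired capitals in Cyfip2, the first is the lysine-to-glutamate site described below. The second had mean levels of 1.50% in wild type and 1.09% in P195A/+. Of the paired capitals in Gria2 and Gria4, the second is the arginine-to-glycine site. The first is silent, at 3.15 and 2.72% in Gria2 and 2.72 and 1.16% in Gria4.
Htr2c (chrX:147169678-147169706, + strand): atgtagcaAtAcgtAAtcctAttgagcat
Blcap (chr2:157558132-157558157, - strand): gatcatgtAttgcctccAgtggctgc
Cyfip2 (chr11:46272634-46272651, - strand): gatacattAAgaccagtg
Ube2o (chr11:116581123-116581151, - strand): atgacggccgcggcAgctcgggctgctcc
Gria2, across an exon junction (site at chromosome 3, 80692286, - strand): tcctcattAAgaaatgcg
Gria4, across an exon junction (site at chromosome 9, 4456006, - strand): tcctcattAAgaactcct
Gria2, the glutamine codon of the channel pore (chr3:80706898-80706926, - strand): gggtgcctttatgcAgcaaggatgcgata

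None of the 63 sites passed the test (edgeR's quasi-likelihood test on edited and unedited reads, Benjamini-Hochberg adjusted p over all sites). Over all tested sites 2, or 0.0143%, passed. Of the 63, 38 were higher and 25 lower in P195A/+. Groups did not overlap at 4 sites that were higher and 1 that was lower, and the shares over all tested sites were 8.32% and 2.92%. The median log2 odds ratio was 0.19 for these sites and 0.21 for all sites.

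Htr2c, the serotonin 2C receptor, carries 5 tested sites in the stretch shown, whose editing sets how strongly the receptor couples to its G protein. The first site, isoleucine to valine, was edited in 74.6, 80 and 67.7% of wild-type reads and 83.3, 84.6 and 83.6% of P195A/+ reads. The next, 2 bases on, stood at 63.2, 58.5 and 55.9% against 69.1, 68.8 and 75%. At both sites every P195A/+ library lay above every wild-type library, with log2 odds ratios of 0.85 (SE 0.469) and 0.75 (SE 0.423; adjusted p = 0.834 for both by edgeR) at 61 to 68 reads per library. The last site was at 68.6, 59.7 and 62.2% against 65.3, 52.1 and 66.2%, and the groups overlapped. The 2 middle sites overlapped as well, at 1.49 to 5.48% against 2.74 to 8.96% and at 18.7 to 26.9% against 16.7 to 26.5%.

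Ube2o, a ubiquitin-conjugating enzyme gene, had its serine-to-glycine site at 63.8, 71.1 and 73.2% in wild type and 77.8, 86.0 and 83.7% in P195A/+. These groups did not overlap, with a log2 odds ratio of 1.02 (SE 0.523; edgeR adjusted p = 0.828) at 38 to 56 reads. The silent glycine site of the kainate receptor gene Grik2 went from 0, 1.80 and 0.833% in wild type to 3.25, 3.70 and 5.50% in P195A/+; the 0 of 121 reads allows a level of up to 2.48%. It had the smallest p of the coding sites in these genes (log2 odds ratio 2.18, SE 0.766, unadjusted p = 0.00436, adjusted 0.782 by edgeR). Blcap, which encodes a small protein that slows cell growth, had 3 sites with higher means in P195A/+ and overlapping groups; its tyrosine-to-cysteine site was at 22.7, 33.3 and 20% against 28.6, 51.5 and 39.3%.

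Other glutamate receptor sites overlapped between the groups where tested. The arginine-to-glycine site of Gria2, which speeds recovery from desensitisation, was at 66.4, 70.6 and 73.1% in wild type and 72.2, 69.9 and 72.3% in P195A/+. In Gria4 the same kind of site was at 59.5, 69.2 and 60.2% against 63.1, 83.2 and 55.8%. The glutamine-to-arginine site of Gria2, which makes the channel impermeable to calcium, lay above the window of pooled levels and was not tested. It was edited in 100, 98.7 and 99.6% of 209, 239 and 281 wild-type reads and in 99.1, 99.03 and 99.6% of 216, 310 and 230 P195A/+ reads. A tested silent site 4 bases on in the same stretch, printed in lower case, was at 20.3, 20.1 and 26.04% against 24.2, 23.7 and 25.8%. The glutamine-to-arginine site of Grik1, a kainate receptor gene, had a lower mean in P195A/+ at 11 to 29 reads, 82.4, 75 and 64.7% against 72.2, 51.7 and 54.5%, and its groups overlapped. The lowest of the 6 levels at the Gria2 glutamine-to-arginine site was 98.7% (exact 95% interval 96.4 to 99.7%, counting error only).

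Other recoding sites went either way. The isoleucine-to-valine site of the potassium channel gene Kcna1, which eases recovery from inactivation, was at 40.3, 34.7 and 45.8% against 49.3, 47.1 and 44.7%. The lysine-to-glutamate site of Cyfip2, a regulator of actin assembly, was at 79.6, 84.3 and 79.2% against 72.8, 79.7 and 79.8%. The serine-to-glycine site of Cadps, a secretion factor gene, was the only 1 of the 63 with non-overlapping groups and a lower level in P195A/+, at 31.8, 40 and 31.7% against 26.9, 29.0 and 19.4% (edgeR adjusted p = 0.898). Its glutamate-to-glycine site overlapped. The pore site of Grik2 was at 77.3, 83.7 and 77.6% against 82.4, 80.3 and 76.9%, and the site of the filamin gene Flna at 51.7, 38.2 and 65.7% against 54.8, 68.2 and 72.4%. Both overlapped between the groups.

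**Figure D2:**
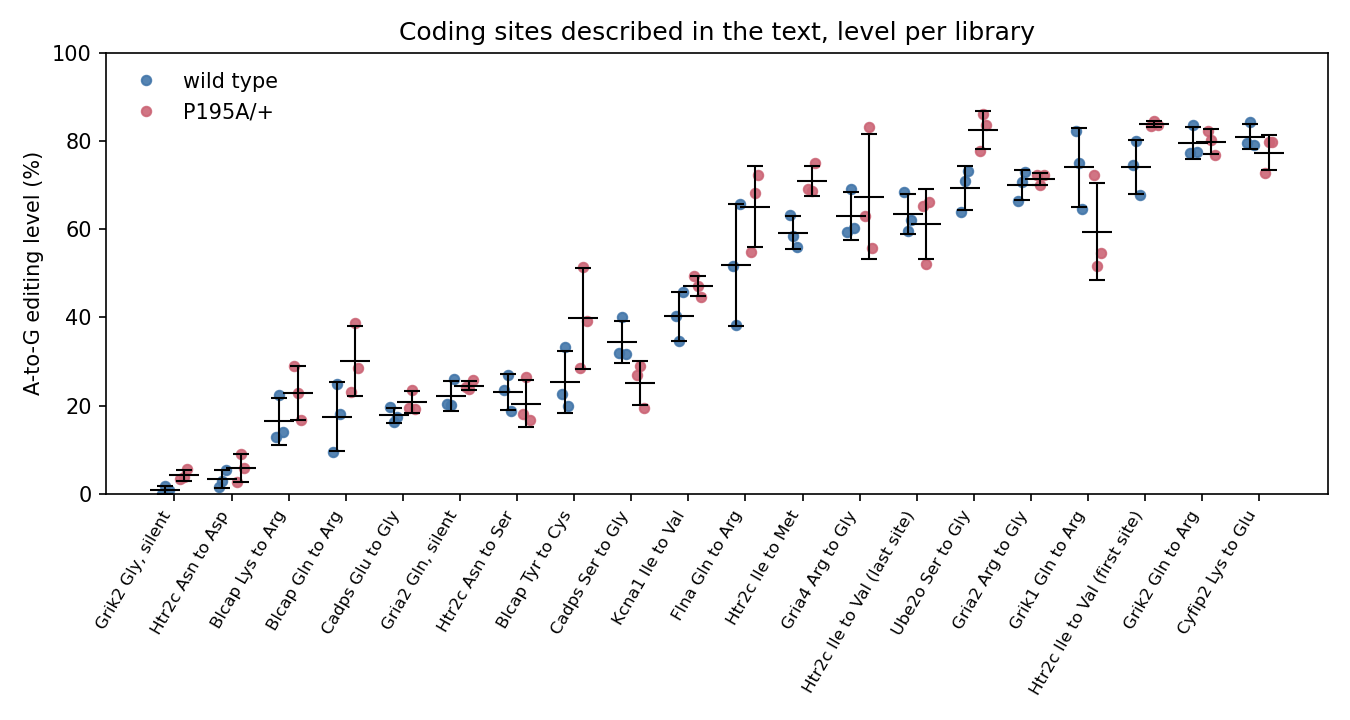
A-to-G editing level (%) at the coding sites described, by library, ordered by the wild-type mean; bars are the group mean ± SD (n = 3). The first pair of Htr2c sites, Ube2o and the silent Grik2 site separate the groups upward, and the Cadps serine site separates them downward.

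Across all sites the test called 2 as higher in P195A/+ and none as lower, while 849 had an unadjusted p under 0.05 (671 higher, 178 lower, or 4.79% and 1.27% of the sites). The first was in the 3′ UTR of Rhoa, a small GTPase of the actin cytoskeleton (chromosome 9, 108337130, + strand): aacttttgtgaattAggctgtaactactt, with the edited base in the capital. Its level was 0.939, 1.68 and 0.935% in wild type and 3.53, 4.93 and 3.47% in P195A/+, at 426 to 548 reads. The groups did not overlap and the log2 odds ratio was 1.76 (SE 0.357; edgeR adjusted p = 0.0238). Leaving out any of wild type replicates 1 and 3 or P195A/+ replicates 2 and 3 ended this call, with adjusted p of 0.06 to 0.37.

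The second lay in a cluster of ribosomal RNA copies on chromosome 17 (39844592, - strand), next to Gm26917. Its levels overlapped, at 23.1, 9.36 and 11.4% in wild type and 17.5, 32.7 and 25.4% in P195A/+ (log2 odds ratio 1.02, SE 0.223; edgeR adjusted p = 0.0310). Reads at such repeated copies cannot be assigned to 1 place. The call was lost without wild type replicate 2 or 3 or P195A/+ replicate 2 or 3 (adjusted p 0.338 to 0.941). A further site in the same cluster, within an exon of Gm26917, was at 4.63, 2.94 and 2.97% against 6.03, 5.63 and 5.24%, at 2996 to 3000 reads, next to the depth cap of 3000.

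Intronic sites made up most of the rest of the 10 smallest p values, and none of them passed. An intronic site of Gria4 (chromosome 9, 4437928) went from 13.9, 17.1 and 11.1% to 46.9, 45 and 47.5%, with non-overlapping groups at 27 to 64 reads (log2 odds ratio 2.35, SE 0.557; edgeR adjusted p = 0.0838). In Kmt2a, a histone methyltransferase gene, a site stood at 40, 18.2 and 20% against 75, 87.5 and 78.6% at 10 to 20 reads. Intronic sites of Cabin1, Chd2 and Klhdc10 had no edited read in wild type and 15.8 to 50, 27.8 to 42.9 and 17.4 to 30.3% in P195A/+, at 10 to 35 reads per library. Over the 3 wild-type libraries these zeros allow levels of up to 6.52, 8.82 and 5.77%. A site in Rbfox1, a splicing regulator of neurons, was at 2.44, 0 and 0% against 11.9, 11.7 and 13.5%.

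Reads summed over the sites of a gene gave more depth. Of 1005 genes with at least 3 tested sites, 741 (73.7%) had a higher and 264 a lower mean level in P195A/+. The groups did not overlap in 200 genes that were higher and 13 that were lower, or 19.9% and 1.29%. The same test called 5 genes, 0.498%, all higher. Among the 1005 genes 133 had an unadjusted p under 0.05 (124 higher, 9 lower). This count of genes, and the choice of its passing genes and of Cdk7 for description, was added after the values had been seen.

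Hivep3, a transcription factor gene (chromosome 4, 119733784 to 120138045), had 12 intronic sites, summing to 11.2, 13.3 and 9.58% edited reads in wild type and 27.8, 21.4 and 26.1% in P195A/+. Its log2 odds ratio was 1.38 (SE 0.294; edgeR adjusted p = 0.0238). Ints8, a subunit of the Integrator complex that processes small nuclear RNA, had 6 intronic sites at 26.8, 20.9 and 19.8% against 42.4, 47.2 and 44.7%. Caml, a factor for inserting tail-anchored proteins, had 3 intronic sites at 11.8, 4.35 and 12.2% against 36.1, 36.7 and 37.5%, from only 30 to 51 reads per library. In all of these the P195A/+ libraries lay above the wild-type libraries.

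Celf1, an RNA-binding regulator of splicing and decay, had 49 intronic sites and 1 in the 3′ UTR, together at 6.73, 9.51 and 8.00% against 13.1, 11.6 and 12.5%. Ap2m1, a subunit of the clathrin adaptor, had 19 sites, all in the 3′ UTR, at 5.85, 4.46 and 6.72% against 8.60, 14.7 and 12.7%. The adjusted p of Caml was 0.0333 and that of Celf1, Ints8 and Ap2m1 was 0.0413 (edgeR). RNA of these 5 genes had log2 fold changes of -0.10 to 0.18 and none passed. Between 0 and 2 genes passed with any 1 library left out: 0 without wild type replicate 1 or 3 or P195A/+ replicate 1, 1 without wild type replicate 2, and 2 without P195A/+ replicate 2 or 3.

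Genes with the most sites differed little. Kcnip4, a potassium channel partner with 381 intronic sites, was at 13.7, 15.8 and 16.03% against 16.3, 15.2 and 16.4%. Fgf14 (237 sites), Kcnd2 (191) and Cadm2 (146) overlapped between the groups too, with log2 odds ratios of 0.08, 0.12 and 0.07. Rbfox1, with 141 sites, was at 17.8, 18.6 and 18.3% against 18.6, 19.5 and 21.1% (log2 odds ratio 0.14; edgeR adjusted p = 0.445). Introns of Adar itself held 10 tested sites, at 13.9, 15.6 and 17.6% against 20.5, 20.6 and 21.2%, and Adarb1 had 19 tested sites at 25.9, 28.6 and 26.8% against 29.5, 31.4 and 27.9%. Neither passed. Cdk7, a kinase of the cell cycle and transcription, was the gene with the smallest p among those lower, with 10 sites in its 3′ UTR at 16.1, 17.9 and 19.3% against 13.3, 10.4 and 10.6% (edgeR adjusted p = 0.0902).

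**Figure D3:**
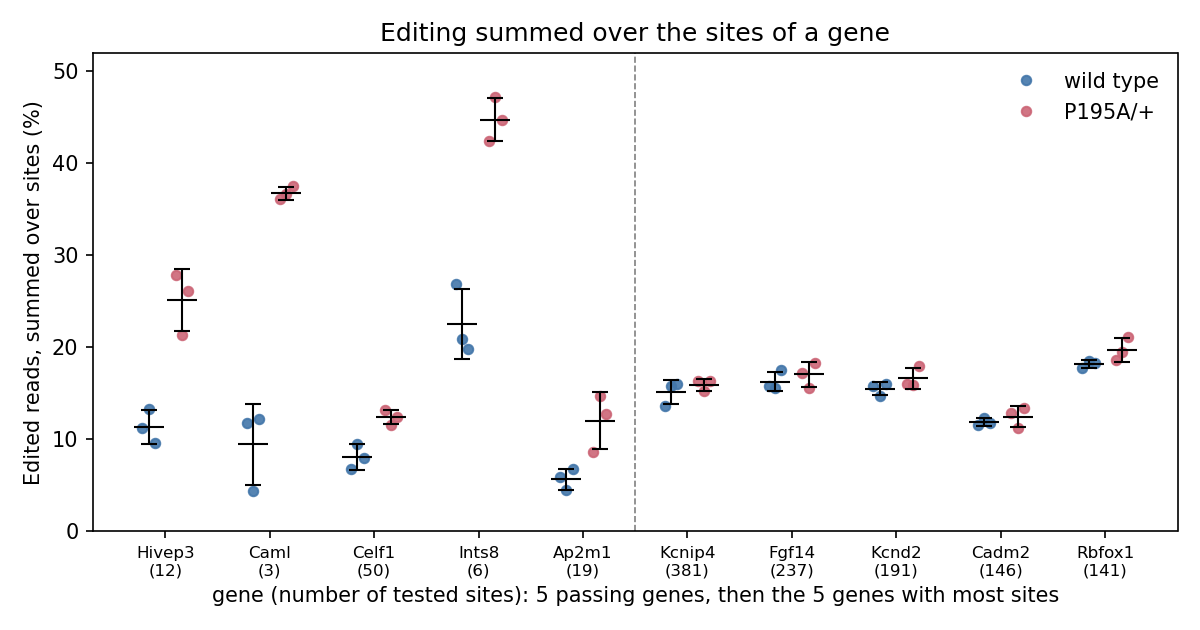
Edited reads as a percentage of A plus G reads summed over the tested sites of a gene, by library, with the number of sites in brackets; bars are the group mean ± SD (n = 3). The 5 passing genes, left of the dashed line, separate the groups, and the genes with the most sites differ by at most a few percentage points.

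RNA of Adar stood at 187, 165 and 189 CPM (counts scaled to a common library size) in wild type and 242, 245 and 232 CPM in P195A/+, and the groups did not overlap. The log2 fold change was 0.41 (SE 0.0814), and it did not pass over all 19962 genes (edgeR adjusted p = 0.232). Adarb1 was at 325, 286 and 305 CPM against 316, 280 and 352 CPM, and Adarb2, which encodes a brain relative without shown activity of its own, at 47.6, 42.0 and 42.2 against 41.2, 43.2 and 41.9 CPM. Both overlapped.

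Expression differed at few genes. Of 19962 tested, 1 passed as higher and 1 as lower in P195A/+, 0.0100% in all, and 895 had an unadjusted p under 0.05 (392 higher, 1.96%; 503 lower, 2.52%). Atp8b2, a phospholipid flippase gene (chromosome 3, 89939481 to 89963508), was at 118, 108 and 121 CPM in wild type and 195.1, 183 and 183 CPM in P195A/+. The groups lay far apart, and the log2 fold change was 0.69 (SE 0.0811; edgeR adjusted p = 0.00236). Without wild type replicate 2 the log2 fold change of Atp8b2 was 0.65 with an edgeR adjusted p of 0.0534.

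The middle of Atp8b2 lies 236 kb from the start of Adar, and genes around it had the same direction. Of the 33 tested genes of at least 1 CPM within 500 kb of Adar, the 11 from Adar to Tpm3, a stretch delimited after the values were seen, were all higher, and in all 11 the groups did not overlap (5.62% of all genes did so upward). Their median log2 fold change was 0.59, against 0.00 for all genes. The range ran from 0.36 in Il6ra, the interleukin 6 receptor, to 0.73 in Ube2q1, a ubiquitin-conjugating enzyme gene. Ube2q1 was at 55.7, 58.2 and 60.2 CPM against 91.7, 98.6 and 97.3 CPM. Tpm3, a tropomyosin gene, stood at 52.1, 61.5 and 57.5 against 88.3, 94.8 and 86.6 CPM. Ubap2l was at 93.9, 94.2 and 92.2 against 127, 151 and 134 CPM, and Chrnb2, a nicotinic receptor subunit gene, at 87.7, 84.2 and 86.9 against 128, 116 and 131 CPM. Of these 11 genes only Atp8b2 passed. Adjusted p in the same test was 0.206 for Ubap2l, 0.211 for Ube2q1 and 4933434E20Rik, 0.353 for Tpm3 and 0.561 for Chrnb2 and Hax1. DESeq2 called Adar, Ubap2l, Ube2q1, 4933434E20Rik, 4632404H12Rik and Tpm3 in addition. Its calls were not confined to this stretch: over all genes it called 19, of which 10 were higher and 9 lower.

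The 18 genes before Adar had log2 fold changes from -0.27 to 0.32, with a median of 0.02, and 10 of them were higher. Adam15 was the only 1 with non-overlapping groups upward, and Shc1 and Kcnn3 were so downward. Of the 4 genes beyond Tpm3, Rps27, a ribosomal protein gene, had a log2 fold change of 1.83 (edgeR adjusted p = 0.626). It was low in all libraries, at 0.337 to 0.999 CPM in wild type and 1.53 to 3.53 CPM in P195A/+, and its groups did not overlap. The others lay between -0.13 and 0.16.

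**Figure D4:**
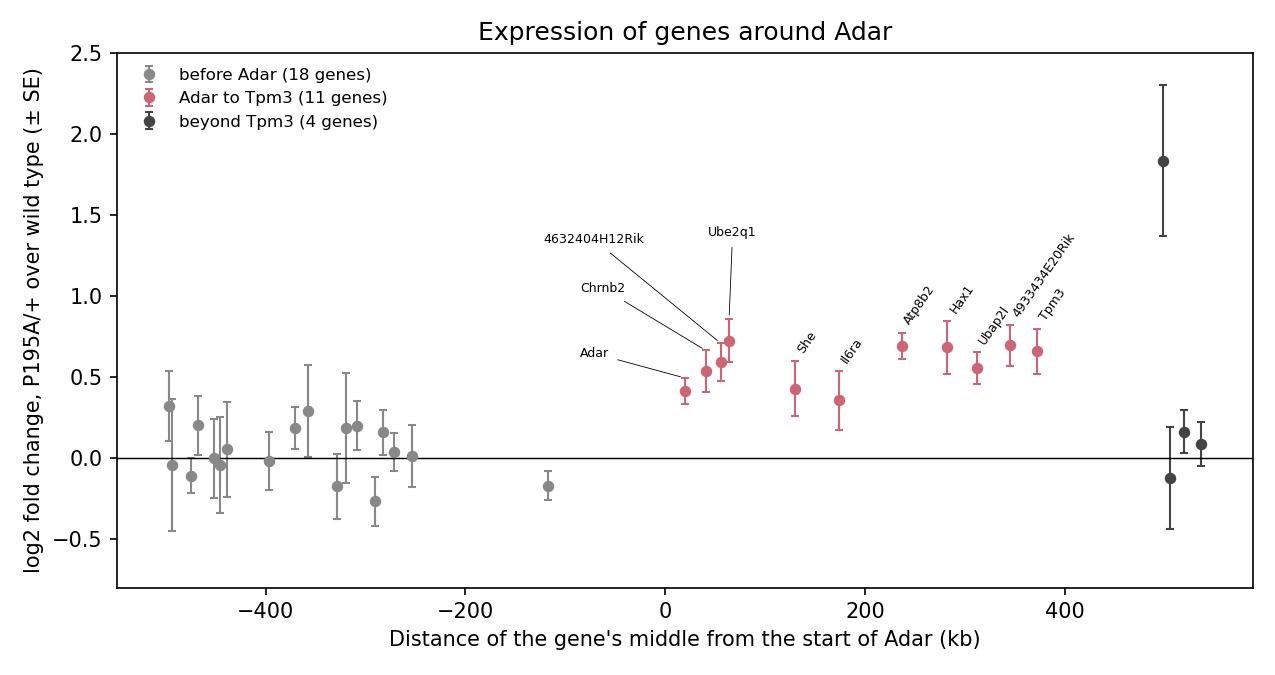
Log2 fold change of expression (P195A/+ over wild type, ± SE) of genes of at least 1 CPM within 500 kb of Adar, by distance of the gene's middle from the start of Adar (kb). The 11 genes from Adar to Tpm3 lie between 0.36 and 0.73, and the 18 genes before Adar lie around 0. Beyond Tpm3, Rps27 lies highest, at 1.83.

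Gm3608, a pseudogene on chromosome 1 (105455971 to 105458829), fell from 30.0, 30.7 and 28.4 CPM to 0, 0.725 and 0.238 CPM. It had 1746 estimated counts over the wild-type libraries and 20 over the P195A/+ libraries, an 88.9-fold lower level (edgeR adjusted p = 0.000386). The 95% exact interval of 57.4 to 146-fold covers counting error only, not the spread between animals or the assignment of reads. The P195A/+ counts were 0, 15 and 5, and the size of the difference rests on them: the log2 fold change of -6.46 became -5.92 without P195A/+ replicate 1 and -7.80 without P195A/+ replicate 2. Its transcript is 99.5% identical to that of Capza1, a capping protein of actin filaments on chromosome 3, over 2859 aligned bases. Capza1 stood at 59.0, 50.9 and 57.1 CPM in wild type and 81.0, 71.5 and 82.6 CPM in P195A/+ (log2 fold change 0.49, SE 0.0923; edgeR adjusted p = 0.223). The sum of both was 89.0, 81.7 and 85.5 CPM against 81.0, 72.2 and 82.8 CPM, and these groups overlapped. Reads of such near-identical copies may be shared between them, so neither value is certain on its own.

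Palm2, a membrane-linked protein gene that shares its strand with the overlapping Pakap, was at 43.1, 43.8 and 46.3 CPM against 23.4, 21.6 and 30.7 CPM (edgeR adjusted p = 0.232). Chst15, a chondroitin sulfate sulfotransferase, was at 68.5, 60.4 and 68.5 against 48.0, 45.6 and 47.6 CPM (edgeR adjusted p = 0.232). Neither gene passed.

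No gene of the immune and stress lists passed. Of 53 interferon-stimulated genes 49 were tested, 39 of them lower and 10 higher, with a median log2 fold change of -0.21 against 0.00 over all genes. Groups did not overlap in 6 that were lower and 1 that was higher, where 6.32% and 5.62% of all genes did so. Oasl2, an antiviral protein gene, was at 2.36, 3.36 and 2.71 CPM against 1.36, 1.02 and 1.71 CPM. Ddx60, a helicase, was at 2.02, 1.89 and 4.02 against 1.36, 0.870 and 1.81 CPM, and Rsad2, the viperin gene, at 6.18, 2.00 and 3.03 against 2.02, 1.26 and 2.52 CPM, where the groups overlapped. The summed level of the list was 292, 292 and 309.3 CPM in wild type and 258, 268 and 282 CPM in P195A/+. Isg15, Oasl1, Cxcl10 and Zbp1 were too low to be tested.

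Sensors and effectors of double-stranded RNA and Z-RNA gave 18 tested genes, 8 higher and 10 lower, with a median of -0.03, and none passed. The 24 tested genes of the integrated stress response had a median of 0.04 and none had an unadjusted p under 0.05. Groups did not overlap in 3 that were higher and 1 that was lower, where 5.62% and 6.32% of all genes did so. Atf4, its transcription factor, was higher, at 53.4, 52.8 and 51.4 against 55.3, 62.1 and 65.1 CPM. Ddit4 was lower, at 31.0, 27.6 and 30.4 against 21.3, 24.1 and 24.5 CPM. Psat1 overlapped, at 116, 146 and 155 against 189, 144 and 159 CPM. Of the 25 genes with coding editing sites 14 were higher and 11 lower, with a median of 0.03.

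Most genes induced by neuronal activity or by glucocorticoids had lower values in P195A/+. Of 20 immediate early genes 14 were lower, the median was -0.15 and none passed. Groups did not overlap in 7 that were lower and 0 that were higher, where 6.32% and 5.62% of all genes did so. The library medians of the list overlapped, at -0.158 to 0.124 in wild type and -0.197 to -0.0921 in P195A/+. Fosb was at 20.1, 18.9 and 16.4 CPM against 10.05, 10.6 and 11.2 CPM, and Fosl2 at 109, 123 and 99.2 against 82.9, 87.1 and 84.0 CPM. All 16 targets of the glucocorticoid receptor were lower, with a median of -0.31 and non-overlapping groups in 5, where 6.32% of all genes did not overlap downward. Sgk1, a kinase induced by the hormone, was at 177, 178 and 146 against 103, 116 and 120 CPM. Fkbp5, a feedback regulator of the receptor, was at 32.7, 32.5 and 36.2 against 19.9, 24.9 and 32.4 CPM. The summed level was 962, 920 and 929 CPM in wild type and 710, 731 and 863 CPM in P195A/+.

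Markers of myelin-forming cells had higher values in P195A/+. Of 12 oligodendrocyte markers 11 were higher and 1 lower, with a median of 0.24, and 5 were higher at an unadjusted p under 0.05, as were 1.96% of all genes. Opalin, a myelin protein gene, was at 10.1, 12.7 and 9.67 CPM against 16.1, 17.1 and 17.5 CPM, and Cldn11, the tight junction gene of myelin, at 168, 166 and 133 against 212, 181 and 224 CPM. The summed level of the list overlapped, at 6409 to 7287 CPM in wild type and 7026 to 8493 CPM in P195A/+. In bulk tissue, more cells of a type and more RNA per cell cannot be told apart. The 8 markers of neurons, 8 of astrocytes and 9 of microglia had medians of -0.08, -0.01 and -0.01. Of the neuron markers 7 were lower and 1 higher. Their summed levels did not overlap, at 4668 to 4887 CPM in wild type and 4159 to 4601 CPM in P195A/+, but their library medians did. Medians were 0.21 for 8 markers of oligodendrocyte precursors, 0.12 for 9 of endothelium and pericytes, -0.07 for 8 of the choroid plexus and -0.01 for 8 of the meninges. They were -0.13 for 9 of neuroblasts and dividing cells, 0.12 for 6 of the cerebellum and 0.06 for 5 of the hypothalamus. Among the meninges markers, groups did not overlap in 3 that were lower and 1 that was higher, where 6.32% and 5.62% of all genes did so. Library medians of the precursor list did not overlap, at -0.0735 to 0.0651 in wild type and 0.0682 to 0.254 in P195A/+. Its summed levels did not overlap either, at 276 to 286 against 300 to 342 CPM. For endothelium and pericytes the library medians did not overlap, at -0.0278 to 0.00106 against 0.0604 to 0.150, but the summed levels did. No marker on these lists was at 0 in every library.

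Of 12 markers of the olfactory bulb 11 were lower, with a median of -0.44. Cdhr1, a cadherin of the bulb's output neurons, was at 15.6, 12.3 and 14.05 CPM against 6.39, 4.59 and 4.33 CPM (edgeR adjusted p = 0.327), and Doc2g at 2.42, 2.58 and 2.89 against 1.09, 1.06 and 0.999 CPM. Their groups did not overlap. Cdhr1 passed in 2 and Doc2g in 0 of 16 alternative settings of the expression fit. The summed level was 615, 635 and 579 CPM against 645, 484 and 564 CPM, which overlapped. All 6 blood cell genes were lower, with summed levels of 1192, 302 and 958 CPM against 527, 356 and 944 CPM. Hormone genes of the pituitary summed to 840 CPM in wild type replicate 2 and 948 CPM in P195A/+ replicate 3, and to 2.98 to 18.5 CPM in the other 4 libraries. With those 2 libraries left out, no gene passed, and Atp8b2 had a log2 fold change of 0.66 (edgeR adjusted p = 0.191) and Gm3608 one of -6.24 (edgeR adjusted p = 0.0953). The part of these regional and cell-type markers in the other results was not tested.

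**Figure D5:**
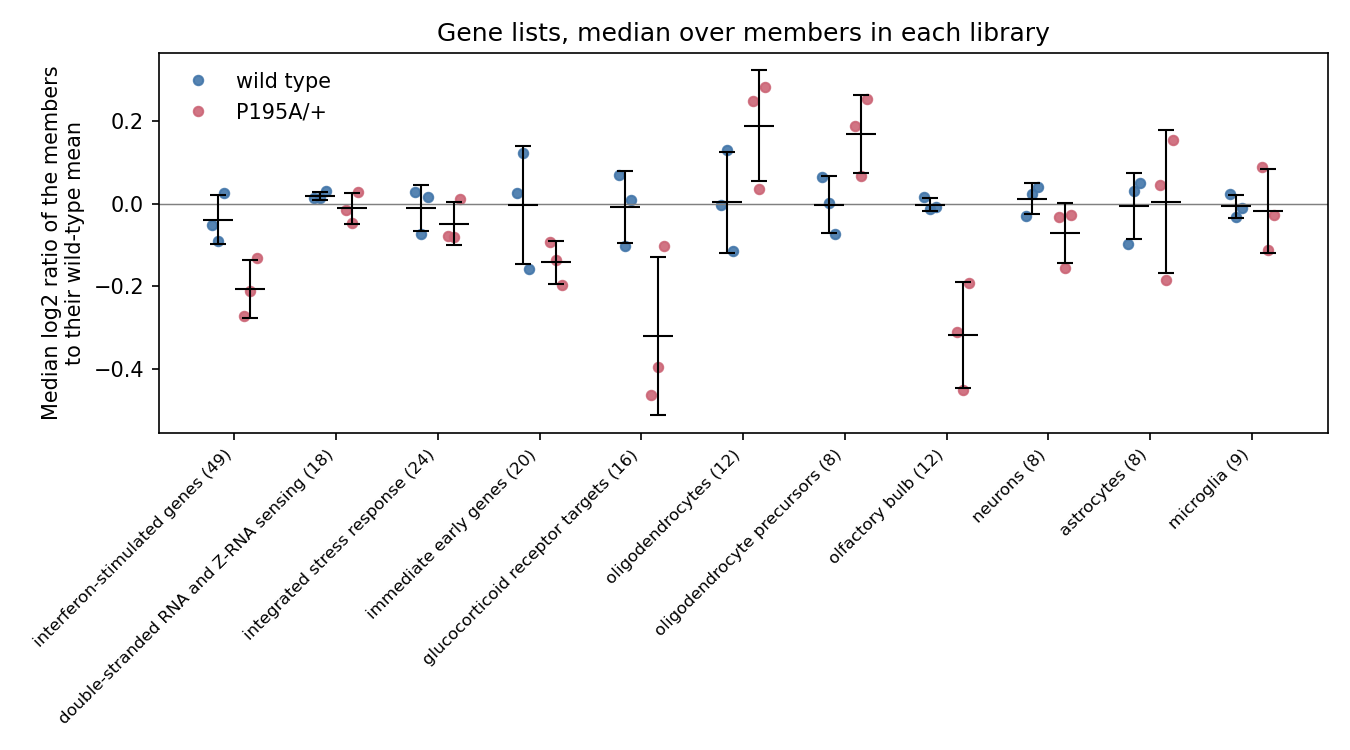
Median log2 ratio of the members of each list to their wild-type mean, by library, with the number of tested members in brackets; bars are the group mean ± SD (n = 3). Interferon-stimulated genes and olfactory bulb markers lie lower in all 3 P195A/+ libraries, and oligodendrocyte precursor markers lie higher by a narrow margin. The other lists overlap.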

How the data were processed

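The authors deposited estimated counts per gene from Salmon on reads trimmed with fastp 0.19.5, per the submitters' processing notes. The versions of Salmon and edgeR are not given here. Base counts at listed editing sites were deposited too, made with JACUSA2 2.0.0-RC5 on mm10 for strand-specific libraries, with a depth cap of 3000 and a minimum coverage of 3, per the file headers. The deposited JACUSA2 score was not used for calls. Of 54307 gene entries, 51482 matched GENCODE M21 by ID, and the rest held 0.678% of counts.

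After rounding, 1 fit of all 13 libraries used TMM, filterByExpr and the quasi-likelihood test of edgeR 4.0.16 (R 4.3.3). Editing was fitted with edgeR on an edited and an unedited count per library, over 14019 sites, as log2 odds ratios. The threshold was a Benjamini-Hochberg adjusted p of 0.05. Mean levels were compared by exact two-sided permutation. Alternatives used limma 3.58.1 and DESeq2 1.42.0, and identity came from BLAST 2.17.0. Tests were also run on simulated data with a spread between animals that was set beforehand, and the outcome is not given here. At 99.97% or more of the shared sites the comparison table held the same reads as each library's own table.

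Named genes were Adar, Adarb1 and Adarb2; passing genes; the 10 smallest p; genes of at least 1 CPM within 500 kb of Adar; and from each list 3 members with the smallest p. Named sites were the 10 smallest p, coding sites of the listed genes, and the 5 genes with most sites; not all are printed. The cut of 1 CPM was made on the mean of all 13 libraries. Members and lists were chosen with earlier results of these data known. Some genes of the lists are not reported here.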

Additional observations from a re-analysis of the deposited data

How the results depend on the processing

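The mean editing difference, in all and by region, kept its direction in each of the 78 combinations of region and setting tried. Over all sites it ran from 1.42 to 2.23 percentage points, and from 1.503 to 2.19 with 1 library left out; by region the ranges with 1 library left out were 1.05 to 1.45 (coding), 1.03 to 1.49 (3′ UTR), 1.04 to 1.93 (non-coding exon), 1.68 to 2.43 (intron) and 0.921 to 1.70 (outside genes). With the replicate number as a block it was 1.83 (sign-flip permutation p = 0.25, the smallest possible). Deviations of same-numbered animals from their group mean had r of -0.04, -0.10 and 0.12 in expression. Not every animal correlated best with its own number. With 3 animals per group these values cannot show whether the numbers pair the animals. Replicate 3 was the male in both groups. Genes called went from 2 to 19 with DESeq2, 7 without a filter on low counts, 11 with only the 6 libraries, 1 with females only (neither of the 2), 0 without wild type 2 and P195A/+ 3 (both chosen after seeing the data), and 1 to 2 with 1 library left out; the replicate block gave 2. Sites called were 3 with 20 reads, 0 with 5 reads, 0 at pooled levels of 5 to 95%, 0 with limma, 1 without the ribosomal cluster, 0 with females only, 0 without those 2 libraries, 0 to 2 with 1 library left out, and 2 with the block, Rhoa and Gm26917 (adjusted p 0.0171 and 0.0238), while the other ribosomal site was at 0.0505. Genes by summed reads were 16 with 1 site or more, 11 with the block, 10 at 5 to 95% (9 higher, 1 lower, Cdk7), 0 with limma, 0 with 20 reads, 0 with 5 reads, 0 with females only, 1 without those 2 libraries, and 0 to 2 with 1 library left out. The cause of these shifts was not tested.

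Of 672, 395 and 189 alternative values of the named genes, sites and summed genes, 3, 8 and 2 turned sign, all at values that did not pass. Adarb1 expression ran from -0.0362 (without P195A/+ 3) to 0.131 with 1 library left out, and was -0.0377 in females and -0.0795 without the 2 libraries. Log2 odds ratios with 1 library left out ran from -0.279 to 0.145 at the last Htr2c site, -0.0280 to 0.198 at the Gria2 arginine, -0.211 to 0.716 at the Gria4 arginine and -0.0677 to 0.214 at the Grik2 pore site. Without the 2 libraries the fourth Htr2c site was at 0.0967, and the sums of Fgf14 and Kcnd2 at -0.0360 and -0.00406. A median of 21 to 30 reads per site limits single sites.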
